A study of Mus musculus with 2 samples.

Results

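The aminoacyl-tRNA synthetase genes were examined in mouse G1E-ER4 cells, an erythroid line that lacks its own Gata1. It carries a restored Gata1 whose activity, rather than its RNA, estradiol switches on. The members were every measured gene whose symbol has the form of a synthetase name (an amino acid letter followed by "ars", with or without an ending such as 2, a, b or l2, or Eprs), and 38 of the 43346 measured genes met that rule. The rule used names and no measured value. Of the 38 genes, 19 encode cytosolic enzymes, 17 encode mitochondrial enzymes, and Gars and Kars each encode the enzyme of both compartments. Polyadenylated RNA of these cells was sequenced in 2 libraries after treatment with 10 nM 17beta-estradiol for 24 h. Both libraries belong to the same group, with the same line, restored Gata1, agent, dose and time, so there was no second condition to compare. Each is labelled a biological replicate, yet both carry the record of 1 biosample, and their spread may be technical rather than biological. An exact two-sided sign-flip permutation test over 2 libraries cannot go below p = 0.5, and every difference between them is therefore given as values without a test. In bulk RNA, fewer cells of a type and less RNA per cell cannot be told apart.

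Aminoacyl-tRNA synthetases attach each amino acid to its matching tRNA and so set the meaning of the genetic code during translation. Mitochondria have their own protein synthesis, served mostly by a separate set of nuclear-encoded synthetases that are imported after translation. The cytosolic enzymes serve all other protein synthesis, which in maturing erythroid cells is dominated by globin. Several cytosolic synthetases are bound in a multisynthetase complex on the scaffold proteins Aimp1, Aimp2 and Eef1e1, and the enzymes fall into class I and class II by the fold of their catalytic domain.

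The libraries held 70451042 counts in replicate 1 and 13841487 in replicate 2, which is 5.09 times fewer. All 10 erythroid marker genes were detected in both libraries, with 3037.95 and 2939.75 TPM (a share of all transcripts, corrected for transcript length) for Gata1 and 664.76 and 2351.07 TPM for Klf1, an erythroid transcription factor. Because the line carries a restored Gata1, its Gata1 level does not speak to cell identity. None of 8 markers of other blood, endothelial and stromal cells reached 1 TPM in both libraries. Their summed level was 0.28 TPM in replicate 1 and 0.99 TPM in replicate 2, and Cd3e, Cpa3, Pf4 and Pecam1 were at 0 in both. The libraries differed widely across the whole table, since 47.9% of the 8895 genes with a mean of at least 1 CPM (counts scaled to library size) lay 2-fold or more apart after scaling. The 10 erythroid markers together took 233500 TPM in replicate 1 and 89070 TPM in replicate 2, most of it globin RNA. The part of depth and of this globin difference in the values below was not tested.

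Of the 38 synthetase genes, 35 reached at least 1 TPM in both libraries, against 17.2% of all 43346 measured genes and 33.1% of the 21474 protein-coding ones. The cytosolic enzymes led. Their median level, taken over 19 genes from the mean of both libraries, was 28.04 TPM, against 7.40 TPM for the 17 mitochondrial enzymes and 18.6 TPM for the 7444 genes detected in both libraries. The cytosolic median was 35.3 TPM in replicate 1 and 12.3 TPM in replicate 2, while the mitochondrial median was 5.39 and 7.89 TPM. In each library the cytosolic median was thus the higher, by a wide margin in replicate 1 and a narrow one in replicate 2. Counting only transcripts that hold at least 90% of the gene's longest coding sequence, a setting chosen after seeing the data, lowered these medians to 6.28 and 1.43 TPM.

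**Figure D1:**
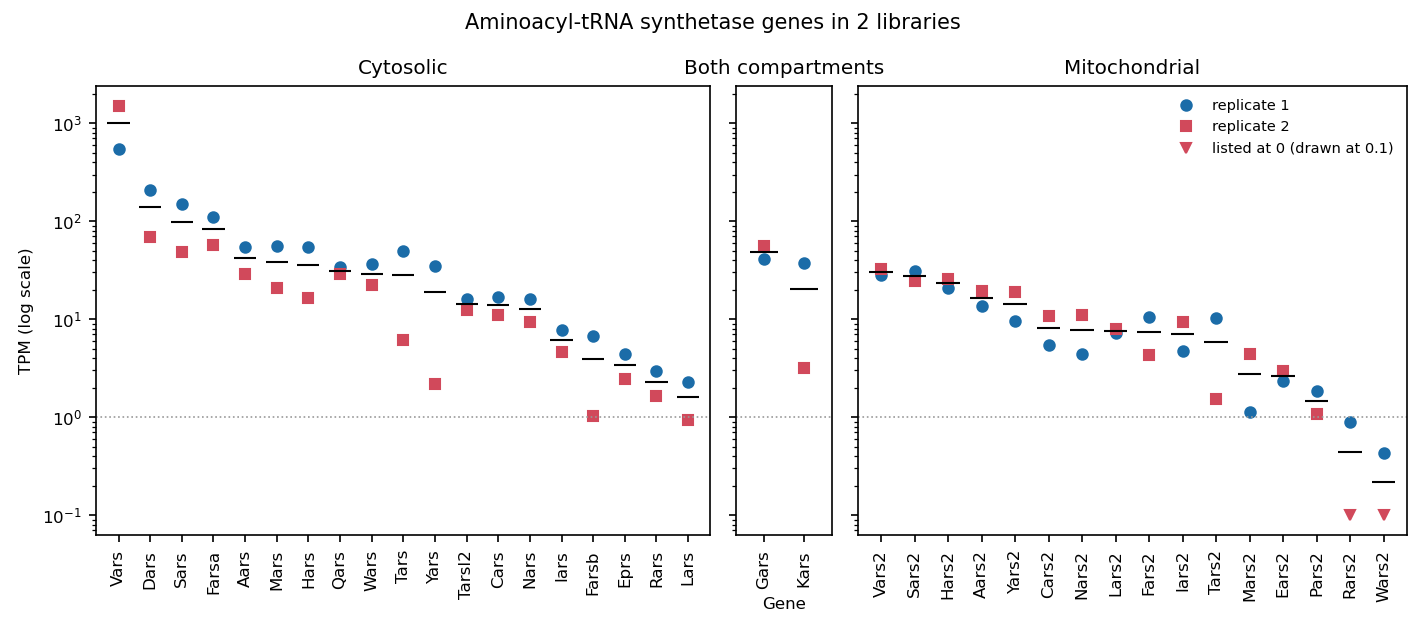
Level of 37 synthetase genes in TPM on a log axis, with 1 point per replicate and a bar at the mean, grouped by compartment. Vars stands at 549 and 1488 TPM, above every other member, Rars2 and Wars2 are listed at 0 in replicate 2 and drawn as triangles at 0.1 TPM, and the dotted line marks 1 TPM.

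Vars, the cytosolic valyl-tRNA synthetase (ENSMUSG00000007029, chr17:35000987-35016322 on the plus strand, mm10), was by far the highest member, with 548.66 TPM in replicate 1 and 1487.82 TPM in replicate 2 (1018 ± 664 TPM, SD, n = 2). It ranked 209th and 91st among all measured genes. Dars, which charges aspartate, stood at 209.79 and 68.45 TPM, and Sars, which charges serine, at 149.59 and 48.60 TPM. Both libraries of Vars lay above both libraries of every other synthetase, and its 2 values were also the furthest apart in absolute terms. Without Vars, an omission chosen after seeing the data, the cytosolic share of all synthetase TPM was 69.0%, against 87.2% ± 1.99 (SD, n = 2) with it.

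Below these 3 the cytosolic enzymes formed a broad middle. Farsa, the alpha subunit of phenylalanyl-tRNA synthetase, was at 110.28 and 56.86 TPM. Aars, which charges alanine and edits mischarged serine and glycine, was at 55.06 and 28.86 TPM. Hars, the histidyl enzyme, was at 54.88 and 16.42 TPM. Each of these genes was lower in replicate 2, and the ranges of Aars and Hars overlap. Mars, the methionyl enzyme that also charges the initiator tRNA, was at 55.61 and 20.93 TPM. Qars, the glutaminyl enzyme, was at 33.79 and 28.88 TPM, and Wars, the tryptophanyl enzyme, at 36.26 and 22.13 TPM. Qars was the closest to equal between the libraries of these 6 in TPM, although its counts were not, as described below. Tars, which charges threonine, was at 49.90 and 6.18 TPM, and its relative Tarsl2, a second cytosolic threonyl enzyme, at 16.11 and 12.28 TPM. Their order therefore changed, with Tars the higher in replicate 1 and Tarsl2 in replicate 2. Yars, the tyrosyl enzyme, was at 35.30 and 2.18 TPM, the widest ratio of any cytosolic member. Cars, which charges cysteine, was at 16.70 and 10.92 TPM, and Nars, which charges asparagine, at 15.99 and 9.26 TPM.

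The lowest cytosolic members were mostly enzymes of the multisynthetase complex. Iars, the isoleucyl enzyme, was at 7.75 and 4.61 TPM, and Eprs, a fusion enzyme that charges both glutamate and proline, at 4.45 and 2.43 TPM. Rars, the arginyl enzyme, was at 2.93 and 1.64 TPM, and Lars, the leucyl enzyme that also acts as a leucine sensor, at 2.29 and 0.94 TPM. Lars was the only one of 19 cytosolic members below 1 TPM in a library. Along the cytosolic order from Vars to Lars there are 18 neighbouring pairs of genes, and in 15 of them the ranges of the 2 libraries overlapped. The ranges were apart only for Vars above Dars, Farsa above Aars, and Nars above Iars.

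Farsb, the beta subunit of cytosolic phenylalanyl-tRNA synthetase, stood well apart from its partner. The enzyme is built of alpha and beta subunits in equal number. Farsb was at 6.72 and 1.03 TPM, and the log2 ratio of Farsa to Farsb (each TPM plus 0.1, as for all ratios between genes here) was 4.02 in replicate 1 and 5.66 in replicate 2 (4.84 ± 1.16, SD, n = 2). The gap was as large with full-length coding transcripts alone, at 5.84 and 5.57. RNA of the alpha subunit was thus the higher by more than 4 log2 units in both libraries and by either measure.

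The 8 synthetases of the multisynthetase complex (Dars, Eprs, Iars, Lars, Mars, Qars, Rars and Kars) had a median of 13.3 TPM, and the 13 cytosolic or shared enzymes outside it had a median of 29.2 TPM. By library the medians were 20.8 and 3.88 TPM within the complex, and 41.1 and 16.4 TPM outside it. All 8 complex members had a higher TPM in replicate 1, as did 11 of the 13 outside it and 5199 of the 8895 genes tested. Levels within the complex ran from 209.79 and 68.45 TPM for Dars to 2.29 and 0.94 TPM for Lars. Most of the Dars level was a short transcript described below, and on full-length transcripts alone Dars was at 10.8 and 1.80 TPM and Kars was the highest of the 8 by its mean, at 37.59 and 3.15 TPM. The 3 scaffold genes also differed in level. Aimp2 was at 109.97 and 58.63 TPM, Eef1e1 at 7.63 and 0.79 TPM, and Aimp1 at 3.80 and 1.44 TPM. By catalytic fold, the 9 class I cytosolic enzymes had a median of 18.7 TPM and the 11 class II cytosolic or shared enzymes a median of 35.7 TPM, with Eprs, which holds both folds, left out.

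Gars and Kars each give both a cytosolic and a mitochondrial enzyme from 1 gene. Gars, the glycyl enzyme, was at 41.07 TPM in replicate 1 and 55.73 TPM in replicate 2 (48.4 ± 10.4 TPM, SD, n = 2). Kars, the lysyl enzyme, was at 37.59 and 3.15 TPM. Gars was thus among the more even members, whereas both libraries of Kars were far apart. The annotation lists Kars coding sequences of 595 and 624 codons, and a change of splicing near the 5′ end is known to make the mitochondrial form. Transcripts of 624 codons made up 26.9% of Kars TPM in replicate 1, at 10.1 TPM. They were listed at 0 in replicate 2, where Kars had 66 counts in all. An upper limit of 4.55% of those counts would hold only if every read told the forms apart. Reads from sequence that both forms share cannot do so, and the share in replicate 2 is therefore not bounded here.

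The mitochondrial enzymes were lower and narrower in range. The highest were Vars2 (valine) at 27.93 and 32.20 TPM and Sars2 (serine) at 30.96 and 24.62 TPM. Hars2 (histidine) followed at 20.97 and 25.92 TPM. Sars2 overlapped both others in range, and all 3 exceeded the median cytosolic gene in replicate 2. Aars2 (alanine) was at 13.71 and 19.57 TPM, and Yars2 (tyrosine) at 9.69 and 19.02 TPM. Cars2 (cysteine) was at 5.39 and 10.69 TPM. All 3 were higher in replicate 2, opposite to their cytosolic counterparts. Nars2 (asparagine) was at 4.44 and 11.01 TPM. Lars2 (leucine) was at 7.25 and 7.89 TPM, the closest values in ratio among the mitochondrial enzymes. Fars2, which works alone where the cytosol uses an alpha and a beta subunit, was at 10.53 and 4.27 TPM. Iars2 (isoleucine) was at 4.71 and 9.33 TPM, and Tars2 (threonine) at 10.27 and 1.52 TPM. These 3 differed between the libraries in either direction. The lowest detected members were Mars2 (methionine) at 1.12 and 4.41 TPM, Ears2 (glutamate) at 2.33 and 2.95 TPM, and Pars2 (proline) at 1.83 and 1.08 TPM. Of the 16 neighbouring pairs in the mitochondrial order, 14 overlapped in range, and the exceptions were Hars2 above Aars2 and Pars2 above Rars2.

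Rars2 and Wars2, the mitochondrial arginyl and tryptophanyl enzymes, were the 2 mitochondrial members not detected in both libraries. Rars2 had 67 counts (0.89 TPM) in replicate 1 and none in replicate 2. Wars2 had 122 counts (0.43 TPM) and none. Set against an assumed 3 counts in replicate 2, scaled CPM in replicate 1 was 3.33-fold higher for Rars2 and 6.06-fold higher for Wars2. The exact 95% Clopper-Pearson interval of the ratio, which allows for the counting error of both libraries, reached down to 2.63 for Rars2 and 4.86 for Wars2. The authors' alternative deposited estimate, a posterior mean, gave 1.26 and 1.52 TPM for Rars2 and 0.49 and 0.25 TPM for Wars2. By that estimate Rars2 was the higher in replicate 2, where it had no counts. Cd3e, Cpa3, Pf4 and Pecam1, at 0 counts in both libraries, were likewise higher in replicate 2 by it (Pecam1 0.07 and 0.43 TPM). The posterior mean therefore gives no direction for Rars2.

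Cytosolic and mitochondrial enzymes for the same amino acid were then set side by side in 18 pairs, where Eprs stands against both Ears2 and Pars2 and Fars2 against both Farsa and Farsb. The cytosolic gene was higher in both libraries in 11 pairs, the mitochondrial gene in 2, and the sign changed between libraries in 5. The median log2 ratio over pairs was 1.22 ± 0.76 (SD, n = 2), with 1.84 in replicate 1 and 0.77 in replicate 2. The cytosolic gene was higher in 16 pairs in replicate 1 and in 11 in replicate 2, and the ratio was larger in replicate 1 in 14 of 18 pairs.

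The widest ratio was that of Wars to Wars2, at 6.10 and 7.80 on the log2 scale, and it rests on the near-absent Wars2. Vars over Vars2 was 4.29 and 5.53. Both exceeded 4 in each library. Mars over Mars2 was 5.51 in replicate 1 and 2.22 in replicate 2, and its mean ratio of 3.87 turned to -0.61 when full-length coding transcripts alone were counted. Farsa over Fars2 was even between the libraries at 3.38 and 3.70, as was Tars over Tars2 at 2.27 and 1.96. The SD was 0.232 for the former and 0.223 for the latter. With full-length transcripts alone Farsa over Fars2 was still even, at 5.38 and 5.45, but Tars over Tars2 was not, at 5.24 and 2.14. Eprs over Pars2 was also even, at 1.24 and 1.10. Sars over Sars2 was 2.27 and 0.98, Aars over Aars2 2.00 and 0.56, and Cars over Cars2 1.61 and 0.03, a narrowing in replicate 2 in each case. With full-length transcripts alone Cars over Cars2 was 1.45 and -1.02.

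Lars2 was higher than Lars in both libraries, with log2 ratios of cytosolic to mitochondrial enzyme of -1.62 and -2.94. Fars2 was likewise higher than Farsb, at -0.64 and -1.95. These were the only 2 pairs with the mitochondrial gene above in both libraries. The 5 pairs whose sign changed were the asparaginyl, histidyl, glutamyl, isoleucyl and tyrosyl enzymes. The largest change was in Yars over Yars2, at 1.85 in replicate 1 and -3.07 in replicate 2, because Yars was the lower and Yars2 the higher gene in replicate 2. Hars over Hars2 was 1.38 and -0.66, Iars over Iars2 0.71 and -1.0, and Eprs over Ears2 0.90 and -0.27. Counted over full-length transcripts alone, the cytosolic gene was higher in both libraries in 4 of these 5 pairs, with log2 ratios of 6.008 and 6.55 for Nars over Nars2, 7.90 and 5.26 for Hars over Hars2, 1.51 and 4.66 for Eprs over Ears2, and 3.35 and 3.84 for Iars over Iars2. Full-length RNA was at 0.15 and 0 TPM for Nars2, 0.13 and 0.33 TPM for Hars2, 1.39 and 0 TPM for Ears2, and 0.67 and 0.23 TPM for Iars2. Where it was at or near 0, the size of the ratio rests largely on the added 0.1 TPM. Yars over Yars2 still changed sign, at 4.21 and -1.69. The means of Iars over Iars2 and Yars over Yars2, at -0.15 and -0.61 over all transcripts, became 3.59 and 1.26. The order of the compartments in these pairs therefore depended on which transcripts were counted.

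**Figure D2:**
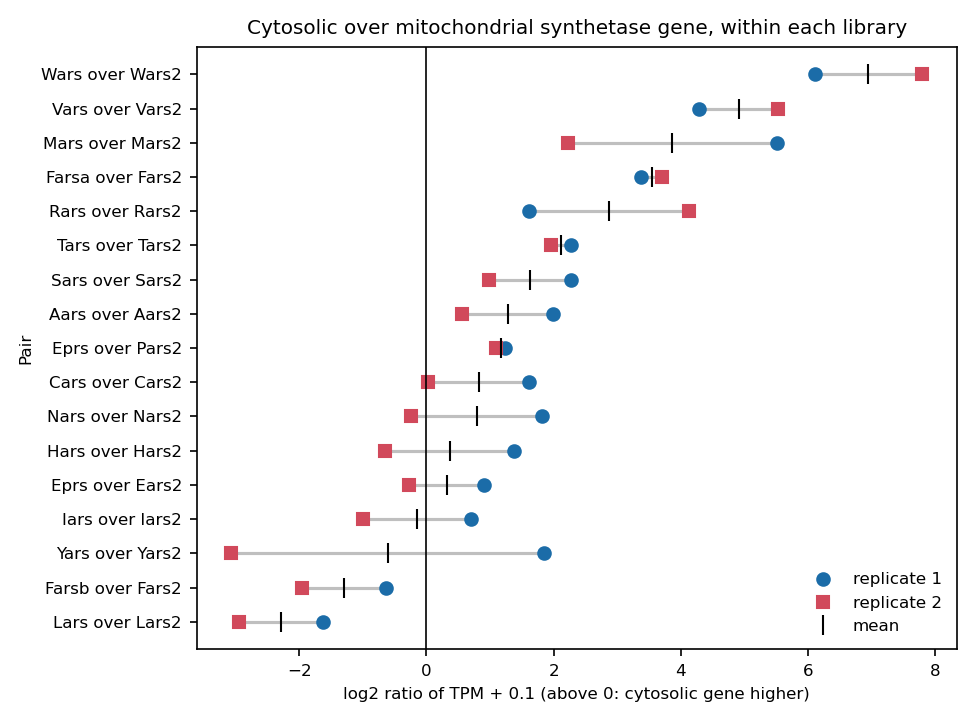
Log2 ratio of cytosolic to mitochondrial enzyme (each TPM plus 0.1) for 17 pairs, with 1 point per replicate. In 10 pairs both points lie above 0, in Farsb over Fars2 and Lars over Lars2 both lie below 0, and in 5 pairs the replicates fall on opposite sides.

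Beside the levels, the counts were compared between the libraries after scaling by trimmed mean of M-values (TMM). Of 36 members with a mean of at least 1 CPM, 13 were at least 2-fold higher in replicate 1, against 30.4% of all 8895 genes tested, and 4 were at least 2-fold higher in replicate 2, against 17.6%. The other 19 lay within 2-fold. Read against the background, the members as a whole differed between the libraries about as often as other genes did.

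By compartment the medians parted. Of 19 cytosolic members 10 were at least 2-fold higher in replicate 1 (Dars, Sars, Hars, Qars, Tars, Yars, Cars, Farsb, Rars and Lars) and 0 in replicate 2. Of 15 mitochondrial members tested, 2 were at least 2-fold higher in replicate 1 (Fars2 and Tars2) and 4 in replicate 2 (Yars2, Cars2, Nars2 and Mars2). Over all genes tested the shares were 30.4% for replicate 1 and 17.6% for replicate 2. The median log2 difference, replicate 1 over replicate 2, was 1.16 for the cytosolic and -0.47 for the mitochondrial enzymes, beside 0.22 for all genes tested. Another scaling moved that overall median by 0.40 (total counts), and members' values shift with it. No test of the difference between the compartments was made.

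The largest differences were in genes with few counts in the shallower library. Kars had 4913 and 66 counts, an 11.1-fold difference in scaled CPM (95% exact Clopper-Pearson interval 8.71 to 14.4). Yars had 2409 and 43 counts (8.35-fold, 6.18 to 11.6), and Tars 8547 and 173 (7.37-fold, 6.34 to 8.61). For each the interval, which covers counting error only, lies well above 2-fold. Tars2, the mitochondrial threonyl enzyme, had 1514 and 42 counts (5.38-fold, 3.96 to 7.49), while Tarsl2, the other cytosolic threonyl enzyme, had 3068 and 377 and a log2 difference of 0.28. Rars had 379 and 19 counts, and its interval of 1.88 to 4.995 around 2.97-fold includes values under 2. In the other direction Mars2 had 862 and 550 counts and was 4.28-fold higher in replicate 2 (3.84 to 4.77), the largest such difference among members. Vars had 75142 and 19876 counts and was 1.77-fold higher in replicate 2 (1.75 to 1.80), and Gars had 6337 and 1408 counts, a log2 difference of -0.58. Apart from these 2, every cytosolic or shared enzyme had a positive log2 difference, although that of Mars, at 0.06, changed sign with DESeq2 size factors.

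**Figure D3:**
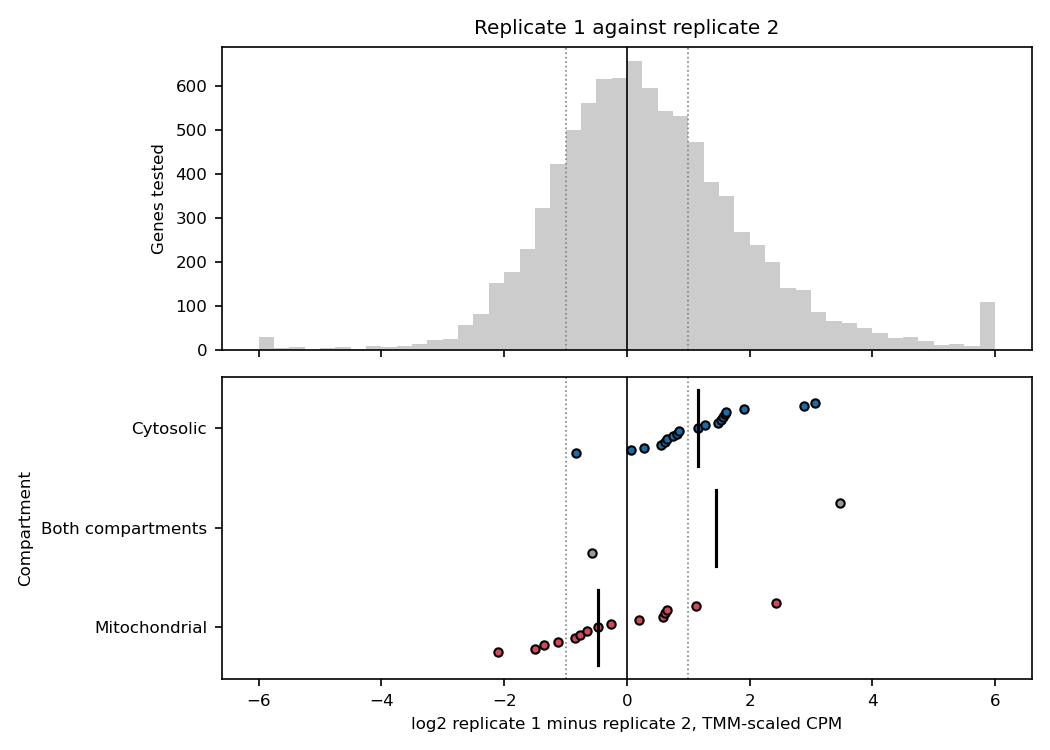
Log2 difference between the libraries (replicate 1 over replicate 2, TMM-scaled CPM) for all 8895 genes tested, as a histogram whose end bins collect values beyond the axis, and for the synthetases by compartment, with bars at the medians and dotted lines at 2-fold. The cytosolic points centre on 1.16 and the mitochondrial points on -0.47.

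For reference, 77 mitochondrial ribosomal protein genes, which serve the same organelle as the mitochondrial synthetases, had a median of 25.2 TPM and a median log2 difference of 0.81. In these genes 28 of 70 tested were at least 2-fold higher in replicate 1 and 7 in replicate 2. A further 67 translation factor genes had a median of 33.4 TPM and a median log2 difference of 0.53, with 25 and 5 of 60. Both sets of counts stand beside 30.4% and 17.6% of all genes tested. The mitochondrial synthetases therefore had the lowest median level of these groups and the only negative median difference. These are descriptions, and no test of the lists was made.

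The transcript tables showed that for many members the level was carried by transcripts that do not encode the whole enzyme. Of 38 members, 10 had 1 annotated transcript and 28 had more. Transcripts with at least 90% of the longest coding sequence made up 50% or more of the gene's TPM in both libraries for 18 members and less than 50% in both for 12. In 7 members, among them Mars, Qars, Vars2, Hars2, Yars2 and Tarsl2, transcripts annotated as noncoding, mostly with a retained intron, made up 50% or more in both. The same shares over all genes are not given here, so these counts do not set the synthetases apart from other genes. The median full-length share was 89.2% and 94.5% for the cytosolic enzymes and 53.9% and 26.5% for the mitochondrial ones. Rars2 and Wars2, at 53.9% and 95.3% in replicate 1, had no share in replicate 2. The 2 mitochondrial medians therefore do not cover the same genes.

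Vars shows how much this matters. Its leading transcript was Vars-213, a 819-base model with 230 codons and an open end that covers bases 331 to 3816 of the gene, against 1263 codons in the full-length Vars-201. Vars-213 was at 259.66 and 916.33 TPM, and Vars-212, a retained-intron model of 826 bases near the 3′ end, at 47.70 and 338.38 TPM. Full-length transcripts summed to 220 TPM in replicate 1 and 229 TPM in replicate 2 (224 ± 6.44 TPM, SD, n = 2). The 2-library gap in Vars therefore lay in the short models, while the summed full-length level was nearly equal. TPM weights short transcripts up, and by counts the full-length share was larger, at 80.3% in replicate 1 and 51.0% in replicate 2, against 40.0% and 15.4% by TPM. Within the full-length set, Vars-201 was at 219.54 and 123.11 TPM and Vars-210 at 0.13 and 105.68 TPM, so the split between these 2 models also differed. Vars-210 is annotated with an open end too, so the near-equal sum rests on it, and Vars-201 alone was lower in replicate 2.

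Dars was led by Dars-202, a 645-base transcript of 87 codons, with 94.9% and 97.4% of its TPM. Its full-length transcript of 501 codons was at 10.8 and 1.80 TPM, far under the gene's 209.79 and 68.45 TPM. Mars was carried by retained-intron transcripts, with Mars-204 at 74.3% and 37.0% and Mars-205 at 16.2% and 53.5%, and its full-length transcript was at 1.48 and 1.40 TPM. On full-length RNA alone Dars averaged 6.28 TPM, the cytosolic median, and Mars was among the lowest cytosolic enzymes. Yars was led by the retained-intron Yars-202 in replicate 1 (77.2%) and by the full-length Yars-201 in replicate 2 (55.3%), at full-length levels of 7.65 and 1.20 TPM. By counts, full-length RNA made up most of Yars in both libraries, at 60.4% and 86.9%. Qars was led by Qars-212 in replicate 1 (70.8%) and Qars-205 in replicate 2 (75.6%), both with a retained intron, at 1643 and 462 bases. Qars had 3362 and 164 counts, a 3.06-fold difference, beside nearly equal TPM, so its TPM and its counts gave different pictures as the leading model shortened.

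Among mitochondrial enzymes, Hars2 was led by the retained-intron Hars2-205 (95.3% and 96.6%), and its full-length RNA was at 0.13 and 0.33 TPM. Nars2 was led by Nars2-202, of 391 codons against 477 (96.6% and 96.7%), and Fars2 by Fars2-202, of 219 codons against 451 (79.2% and 73.4%). These genes gave the same leading transcript in both libraries. Tars2 was led by Tars2-204 of 642 codons in replicate 1 (87.8%) and by the full-length Tars2-201 of 723 codons in replicate 2 (87.6%). Iars2 was led by Iars2-203 (733 codons) in replicate 1 and Iars2-202 (560 codons) in replicate 2, against 1012 codons in full. Among the 15 members with more than 1 transcript and at least 10 TPM, 11 were led by the same transcript in each library (73.3%, against 66.5% of 3700 such genes), and the other 4 were Cars, Mars, Qars and Yars. Leading transcripts are by TPM. By counts the full-length share was 97.3% and 88.4% for Cars, 9.12% and 9.91% for Mars, and 21.3% and 29.5% for Qars. Sars, Farsa, Aars, Wars, Iars and Eprs each kept a full-length share of TPM of at least 86.4% in both libraries.

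**Figure D4:**
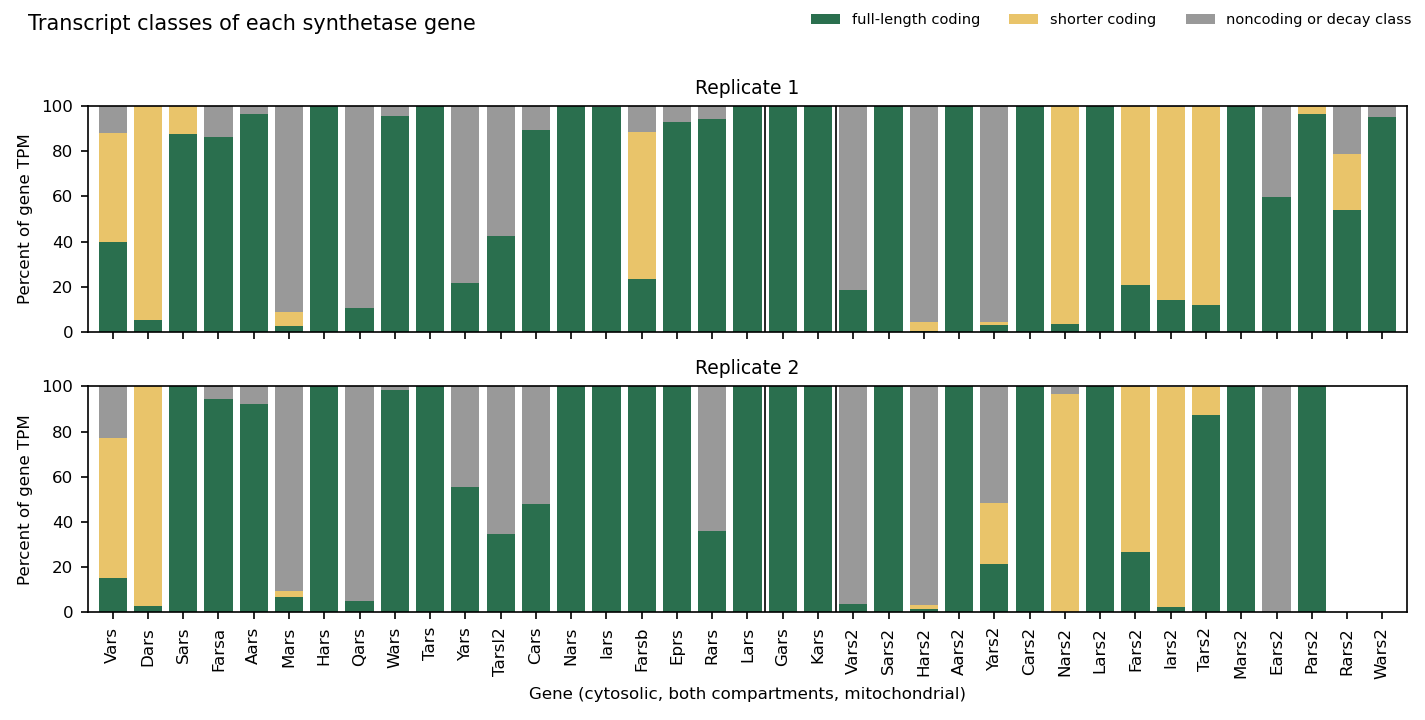
Percent of each gene's TPM held by full-length coding, shorter coding and noncoding transcripts, with 1 stacked bar per gene and replicate for 37 genes. Genes such as Aars and Wars are nearly all full-length, while Dars is over 90% shorter coding and Hars2 over 95% noncoding in both replicates.

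Another measured protein-coding gene overlapped 11 members, 10 of them on the opposite strand. Hars and Hars2 lie head to head and share 198 bases, and Mars shares 68 bases with Ddit3, a stress-response transcription factor gene that had 7521 and 229 counts. The sources used here do not state whether counting used the strand, so reads from these shared stretches may be assigned to either gene. Tarsl2 shares 923 bases with Tm2d3 on the same strand. The deposited posterior SD of the count was 0 in both libraries for 35 of 38 members, Hars, Hars2 and Mars among them. It was above 0 for Qars, Iars and Tarsl2, so for most synthetases the estimate held no uncertainty between genes. The share of all genes that overlap another gene is not given here.

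Promoter sequences from RefSeq (GRCm38.p6, 250 bases before to 50 after each start) were matched by symbol to 28 of 38 members, 14 of them cytosolic or shared and 14 mitochondrial. Those without a match included Hars, Cars, Lars, Wars, Pars2, Vars, Rars, Hars2 and Nars. The motif TGATGNAA, the core that the amino acid response factor Atf4 binds with its partners, was searched on both strands. It was present in 5 of 28 members (17.9%), which are Aars, Gars, Iars, Tars and Yars, and in 3.97% of 32851 promoters. All 5 are cytosolic or shared enzymes, and 0 of 14 mitochondrial members held it. Matches within 60 bases of the start are shown because these are the members whose promoters share the motif, each 5′ to 3′ on the gene's strand with the match in capitals and the coordinates (GRCm38.p6) in the name.

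Aars, chr8:111033841-111033868, plus strand: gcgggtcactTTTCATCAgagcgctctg
Iars, chr13:49682127-49682154, plus strand: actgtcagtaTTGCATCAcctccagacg
Yars, chr4:129189896-129189923, plus strand: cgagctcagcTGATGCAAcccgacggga
Tars, chr15:11399666-11399733, minus strand: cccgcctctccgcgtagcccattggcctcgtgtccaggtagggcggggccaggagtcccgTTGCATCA
Gars, chr6:55037911-55038000, plus strand: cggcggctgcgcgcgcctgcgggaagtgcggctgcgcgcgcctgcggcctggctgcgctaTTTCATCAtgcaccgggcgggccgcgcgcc

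In Aars, Iars, Tars and Gars the match reads as its reverse complement (TTGCATCA or TTTCATCA) on the gene's strand, and in Yars it reads directly. Measured from the start used for each promoter, they lie 10 bases after the start of Aars, 8 after that of Iars, 4 after that of Yars, 15 before that of Tars and 30 before that of Gars. These starts are not always those of the main coding transcript. The Aars match lies before the start of the leading Aars-201, and the full-length Yars-201 starts further upstream than the Yars promoter start. Those of Tars and Gars lie outside any annotated exon, and the others lie within an exon of at least 1 annotated transcript. For Aars that transcript is Aars-203 alone, at 0.08 and 0 TPM. By the mean of both libraries, the lowest of the 5 genes was Iars, at 7.75 and 4.61 TPM, and the highest was Gars, at 41.07 and 55.73 TPM. Between the libraries their log2 differences ran from -0.58 (Gars) to 3.06 (Yars). A match is a description of these letters, not of binding.

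Other motifs were counted in the same way, on both strands. The GATA site AGATAA was in 3 of 28 members (10.7%; Aars2, Farsb and Sars2), against 11.2% of all promoters. The E-box CACGTG was in 5 (17.9%) against 7.15%, the NRF1 motif in 5 (17.9%) against 6.23%, and the CCAAT box (CCAAT) in 13 (46.4%) against 37.4%. The ETS motif CCGGAAG was in 9 (32.1%; Cars2, Farsa, Gars, Kars, Mars, Mars2, Rars2, Sars and Sars2) against 8.86%, and it was spread over both compartments, with 5 cytosolic or shared and 4 mitochondrial genes.

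Partner and editing factors of the synthetases had a median of 6.49 TPM, lower than that of the cytosolic enzymes. Of 11 such genes, 6 reached 1 TPM in both libraries, and 7 of 10 tested were at least 2-fold higher in replicate 1 and 0 in replicate 2, with a median log2 difference of 1.58. The 2-fold shares of all genes tested were 30.4% and 17.6%. Trmu, which modifies mitochondrial tRNA, was at 42.92 and 19.97 TPM, and Aarsd1, which clears mischarged alanine tRNA, at 28.99 and 17.37 TPM. Pstk, a kinase on the path to selenocysteinyl-tRNA, was the exception at 23.31 and 38.12 TPM. Mitochondria have no glutaminyl-tRNA synthetase of their own and make that tRNA with an amidotransferase of 3 subunits. Of these Gatc was at 17.94 and 14.78 TPM, Gatb at 2.81 and 0.44 TPM, and Qrsl1 at 0.45 and 0.29 TPM. Gatc was thus the highest of the 3 in both libraries. Prorsd1, a relative of the prolyl enzyme's editing domain, was at 14.44 TPM (797 counts) in replicate 1 and listed at 0 in replicate 2.

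The amino acid response genes, which Atf4 switches on together with several cytosolic synthetases when amino acids run short, were mixed in level. Of 11 such genes 8 were detected in both libraries, 1 of 8 tested was at least 2-fold higher in replicate 1 and 0 in replicate 2. Among all genes tested, 30.4% and 17.6% were past 2-fold in these directions. Atf4 itself was at 64.78 and 32.88 TPM, and Asns, asparagine synthetase, at 33.98 and 12.97 TPM. Slc7a5 and Slc3a2, the subunits of a large neutral amino acid transporter, were at 52.32 and 50.95 TPM and at 41.68 and 31.10 TPM. These genes lay in the range of the middle cytosolic synthetases in both libraries. The 1 tested gene past 2-fold was Ddit3, at 150.51 and 26.91 TPM (4.90-fold in scaled CPM), and it is also the neighbour of Mars described above. Sesn2, a leucine sensor, was at 20.31 and 20.32 TPM, the closest values of the list. Psat1, an enzyme of serine synthesis, was at 3.06 and 11.28 TPM. Its 387 and 48 counts were 1.20-fold higher in replicate 1 after scaling (0.889 to 1.66), and its listed length was 1984 and 511 bases. Phgdh, which acts before it, had 11 and 16 counts, 9.76-fold higher in replicate 2 after scaling (4.25 to 23.3). Trib3 was at 6.38 and 9.06 TPM, while Chac1, with 3 and 14 counts, and Slc7a11, with 2 and 0, were near the limit of detection. Chac1 was 31.3-fold higher in replicate 2 after scaling (8.74 to 170). Phgdh, Chac1 and Slc7a11 lay below the mean of 1 CPM and are not among the 8 tested. The median log2 difference of the 8 tested genes was 0.28, close to the 0.22 of all genes tested and under the 1.16 of the cytosolic synthetases.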

How the data were processed

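Each library came with a gene table and a transcript table. Per the file headers, the deposited tables give the estimated count, the TPM, the percent of a gene's TPM held by each transcript, and a posterior SD of the count, which was used as a score of uncertainty. The deposited text beside the tables names mm10 and GENCODE M4. No aligner, counting program or strand setting is stated there or in the labels. The authors' gene and transcript lengths, in bases, were used as deposited. Symbols, coding lengths and transcript types came from GENCODE M21 (GRCm38), matched by identifier without version, and 1 of 193 synthetase transcripts had no match.

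Levels are the deposited TPM. Ratios between genes used log2 of TPM plus 0.1. Estimated counts were rounded, scaled with edgeR 4.0.16 (TMM factors 1.15 and 0.871) and compared between libraries for genes with a mean of at least 1 CPM and a prior count of 0.5. DESeq2 1.42.0 size factors, total counts, other minimum levels and transcript choices were tried as alternatives. A count of 3 corresponds to 0.0426 CPM in replicate 1 and 0.217 CPM in replicate 2. Intervals are exact Clopper-Pearson at 95% and cover counting error only, since reads are not independent molecules. The ratio script was tested on simulated data. R 4.3.3 and Python 3.11.15 were used. Every member is named, and other genes come from lists of partners, scaffolds, amino acid response genes and markers. The members and lists were chosen with earlier results of these data known. The values of 1 mitochondrial member, which stay in the counts and medians, and 1 promoter sequence are not reported here.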

Additional observations from a re-analysis of the deposited data

How the results depend on the processing

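No paired analysis was possible because the samples form 1 group. With either library left out, the mitochondrial median ran from 5.39 to 7.89 TPM and the cytosolic median from 12.28 to 35.3 TPM. Protein-coding transcripts alone gave a cytosolic median of 10.05 and a mitochondrial median of 4.82 TPM. A minimum of 5 TPM left 7 mitochondrial members detected. Full-length coding transcripts alone, a setting chosen after seeing the data, left 9 mitochondrial members detected, medians of 6.28 (cytosolic) and 1.43 (mitochondrial) TPM, a median pair ratio of 2.82 (log2) and a cytosolic share of 79.5%. They also turned the mean of Mars over Mars2 from 3.87 to -0.61, of Iars over Iars2 from -0.15 to 3.59 and of Yars over Yars2 from -0.61 to 1.26. Without Vars, also chosen after seeing the data, that share was 69.0%. Members 2-fold higher in replicate 1 and in replicate 2 numbered 20 and 2 by total counts (background 40.1% and 10.6%), and 21 and 8 at 1.5-fold (40.6% and 27.4%), against 13 and 4. None of the 17 changed sign under DESeq2 size factors or total counts. Leaving out a library could not be run for comparisons between the libraries or for leading transcripts. Values of the low members rest on few counts. Replicate 2 gave under 50 counts for members such as Yars, Tars2, Lars, Pars2, Farsb and Rars and none for Rars2 and Wars2. The part of depth in these low counts was not tested.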
